A study of Drosophila melanogaster with 2 samples.

Results

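The heat shock and chaperone genes described here are 10 listed genes of Drosophila melanogaster, of the 17612 genes counted in single hemocytes, the blood cells of the fly. They are the small heat shock protein genes Hsp22, Hsp23, Hsp26, Hsp27 and Hsp67Bc, the Hsp70 family genes Hsp68 and Hsc70-3, the J protein gene DnaJ-1, the Hsp90 gene Hsp83 and the mitochondrial chaperonin gene Hsp60A. They were chosen by name, with earlier results of these data known, and matched through their FlyBase identifiers. Chaperones bind unfolded or partly folded proteins. Small heat shock proteins hold such proteins so that they do not aggregate, Hsp70 proteins fold them with the help of J proteins, and Hsp90 and Hsp60 act on narrower sets of clients or in a closed chamber. In flies heat induces Hsp22, Hsp23, Hsp26, Hsp27, Hsp68, Hsp83 and DnaJ-1 through the heat shock factor Hsf, and the steroid hormone ecdysone induces Hsp23, Hsp26 and Hsp27 during normal development.

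Larvae carried the driver BeadexMS1096-Gal4, which is active in the salivary glands (SGs). Crossed to w1118 it gave the controls, crossed to UAS-RasV12 the tumor model, with oncogenic Ras in the glands, and crossed to p35;UAS-RasV12 the same tumor model with p35, an inhibitor of effector caspases. Hemocytes were collected by the red reporter EaterDsRed, which marks plasmatocytes, the macrophage-like hemocytes. Circulating cells came from bled larvae pooled by genotype and were sorted, and tumor-associated hemocytes (TAHs) were drawn by capillary from dissected glands pooled by genotype. The kept cells numbered 125 from w1118, 126 from RasV12 and 124 from p35;RasV12 larvae in circulation, and 40 from RasV12 and 19 from p35;RasV12 glands. The attached set holds 17 further wells, labelled w1118_C, Ras_C or p35Ras_C, of which 13 were kept. What the ending _C stands for is not given in the sources used here, and these wells form no group of the 6 comparisons. Their values are given beside those of the groups, and their median was subtracted in 1 alternative. Circulating cells held 2129 to 1149704 reads and attached cells 261607 to 58927908 reads. Each group is 1 pool, so there are no replicates, no test was run, and cells of a group are not replicates of its genotype. Levels are counts per 1000000 reads (CPM), either of 1 cell or of the summed reads of a group, and groups were compared by the log2 ratio of summed CPM with an exact counting interval at 95%. Since PCR duplicates and, in the attached set, both reads of a pair were counted, the intervals understate even the counting error.

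The defining markers of plasmatocytes had reads in all groups, 8 of 8 genes in each. Their summed level was 16856 CPM in circulating w1118, 25434 CPM in circulating RasV12 and 31683 CPM in circulating p35;RasV12 cells, and 10688 and 11057 CPM in attached RasV12 and p35;RasV12 cells. Genes of the salivary gland were nearly at 0 in circulating cells, at no more than 0.49 CPM summed over 10 genes, and stood at 32112 and 21113 CPM in the attached groups, in the same order. Genes of the fat body stood at 48.5 to 73.8 CPM in the circulating groups and at 24078 and 47019 CPM in the attached groups. Markers of crystal cells, another hemocyte type, stood at 511 CPM in attached RasV12 and 15918 CPM in attached p35;RasV12 cells, with medians over cells of 56.2 and 620 CPM. Markers of lamellocytes, a hemocyte type that encapsulates foreign bodies, stood at 923 and 438 CPM. The part of all these lists in the levels of the chaperone genes was not tested.

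Hsp22, whose protein works in mitochondria, had 0 reads in every cell of every group, and this is set by the counting. Its 1900 exonic bases (FBgn0001223, chromosome 3L from 9372931 to 9374964, plus strand, build Dm6) all lie inside exons of CG4456 (FBgn0001228, 3L from 9372722 to 9374964), and reads that fall on 2 genes are left uncounted under the default settings. CG4456 has 209 bases of its own, on which between 0 and 38 reads were counted per group. No level of Hsp22 can therefore be read from the count tables. The other members share at most 3.00% of their exonic bases with another gene, the largest share being that of Hsp27. Hsp23 (FBgn0001224, 3L from 9381882 to 9382765), Hsp26 (FBgn0001225, 3L from 9376418 to 9377427), Hsp27 (FBgn0001226, 3L from 9384063 to 9385694) and Hsp67Bc (FBgn0001229, 3L from 9371511 to 9372497) lie with Hsp22 in a stretch of 14184 bases. The rest lie elsewhere, Hsp68 (FBgn0001230) on 3R from 24055080 to 24057310, Hsp83 (FBgn0001233) on 3L from 3192969 to 3197059, DnaJ-1 (FBgn0263106) on 3L from 5750029 to 5752189, Hsc70-3 (FBgn0001218) on X from 11801696 to 11807117 and Hsp60A (FBgn0015245) on X from 11108482 to 11112308.

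Among the small heat shock protein genes, Hsp23 had the highest summed level in circulating w1118 and RasV12 cells, and its level differed widely from cell to cell. In w1118 cells its level ran from 6.81 CPM through a median of 7937 CPM to 32919 CPM. In RasV12 cells it ran from 0 through 322 to 30676 CPM, and in p35;RasV12 cells from 0 through 50.8 to 1182 CPM. The ranges of single cells overlapped, but 98 of 125 w1118 cells and 36 of 126 RasV12 cells had at least 2000 CPM, against 0 of 124 p35;RasV12 cells. RasV12 cells were spread over the whole range, with 46 cells under 100 CPM, 19 between 500 and 2000 CPM and 29 at 10000 CPM or more. These bounds were chosen after the values were seen. Summed over cells, Hsp23 stood at 8789 CPM in w1118, 4889 CPM in RasV12 and 123 CPM in p35;RasV12. The log2 ratio to w1118 was -0.85 (-0.85 to -0.84) for RasV12 and -6.16 (-6.19 to -6.13) for p35;RasV12, a level 71.6-fold lower. The log2 ratios of medians over cells to w1118 were -4.62 and -7.29.

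Hsp27, a nuclear small heat shock protein, followed the same order. Its level ran from 0 through a median of 2132 to 4717 CPM in w1118 cells, from 0 through 278 to 6923 CPM in RasV12 cells and from 0 through 104 to 521 CPM in p35;RasV12 cells. The upper quartile of p35;RasV12 cells, 149 CPM, lay below the lower quartile of w1118 cells, 963 CPM. The summed level was 1996 CPM in w1118, 1067 CPM in RasV12 and 122 CPM in p35;RasV12, with log2 ratios to w1118 of -0.90 (-0.92 to -0.89) and -4.03, the latter a level 16.3-fold lower.

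Hsp26, a cytosolic small heat shock protein, was read in most control cells and in few cells of the p35;RasV12 larvae. At least 1 read was found in 86.4% of w1118 cells (79.1 to 91.9%, Clopper-Pearson), in 41.3% of RasV12 cells (32.6 to 50.4%) and in 12.1% of p35;RasV12 cells (6.93 to 19.2%). With cells thinned to 420000 reads these shares were 84.7%, 41.8% and 10.6%. The level ran from 0 through a median of 152 to 2909 CPM in w1118 cells. Medians were 0 in both tumor genotypes, with highest cells of 1922 CPM in RasV12 and 470 CPM in p35;RasV12. The latter is 1 read in the shallowest cell, of 2129 reads. The summed level was 360 CPM in w1118, 147 CPM in RasV12 and 2.82 CPM in p35;RasV12, with log2 ratios to w1118 of -1.29 (-1.32 to -1.26) and -7.00 (-7.20 to -6.80). Hsp67Bc, a small heat shock protein that acts with the co-chaperone Starvin, was rarely read in circulation, with reads in 3 of 125, 2 of 126 and 2 of 124 cells. Its 43, 11 and 6 reads per group put it at 0.54, 0.15 and 0.08 CPM. Both log2 ratios to w1118, -1.85 and -2.80, rest on these few reads.

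**Figure D1:**
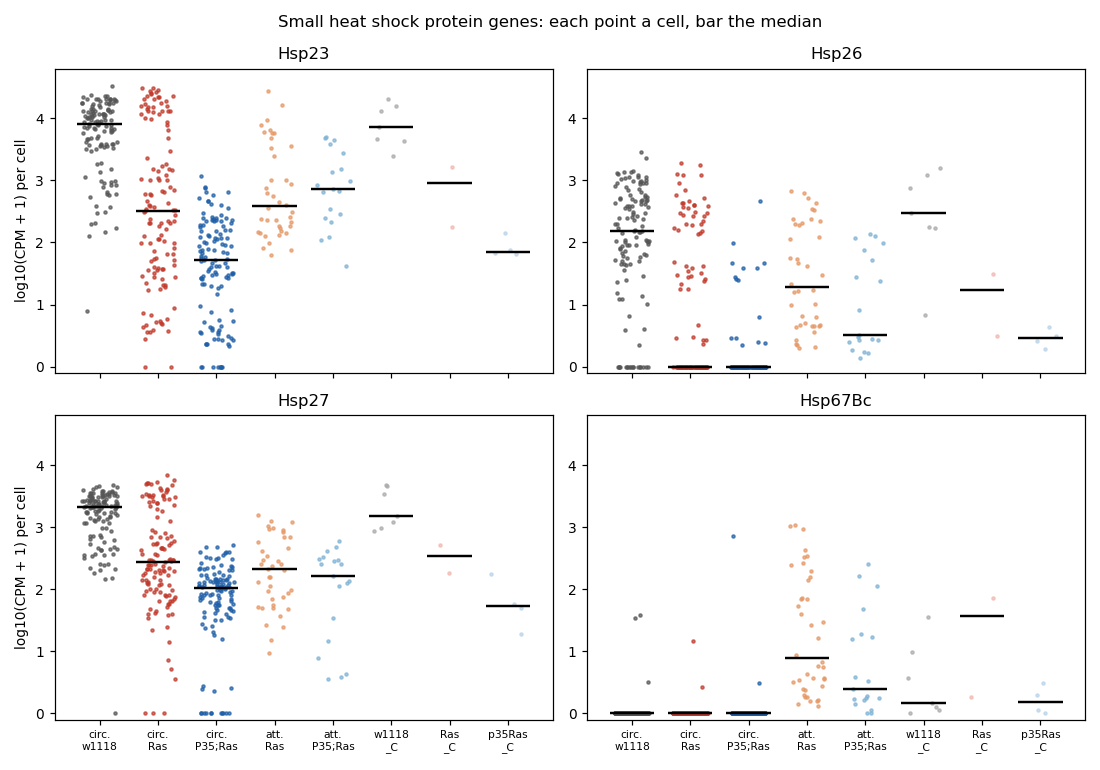
Level of 4 small heat shock protein genes per cell, as log10 of CPM plus 1, in the 3 circulating (circ.) groups, the 2 attached (att.) groups and the _C wells. Each point is a cell and each bar a median. For Hsp23 the bar goes from 7937 CPM in circulating w1118 cells to 50.8 CPM in circulating P35;Ras cells, and circulating Ras cells fill the range between.

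Hsp23, Hsp26 and Hsp27 went up and down together from cell to cell. As a description across the cells of 1 pool, which share their library preparation and differ in depth, Spearman's rho between Hsp23 and Hsp27 was 0.88 over 125 w1118 cells, 0.90 over 126 RasV12 cells and 0.47 over 124 p35;RasV12 cells. Between Hsp23 and Hsp26 it was 0.74, 0.75 and 0.15, where the last value comes from a gene with reads in 15 cells. With the number of reads of the cell, Hsp23 had a rho of -0.07, -0.05 and 0.01, and with the mitochondrial percentage 0.06, -0.09 and -0.07. The summed plasmatocyte markers ran the other way, with a rho to Hsp23 of -0.68 in w1118 and -0.73 in RasV12 cells and of -0.03 in p35;RasV12 cells. Hsp67Bc, in the same chromosomal stretch but rarely read, had a rho with Hsp23 of -0.02, 0.02 and -0.15. Outside this stretch, the rho of Hsp23 with the heat inducible Hsp68 was 0.14, 0.05 and 0.15, and with DnaJ-1 -0.09, -0.09 and 0.06, both genes being low. With Hsc70-3 it was 0.41, 0.47 and -0.07, with Hsp83 0.19, 0.27 and 0.11, and with Hsp60A -0.40, -0.56 and 0.04.

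**Figure D2:**
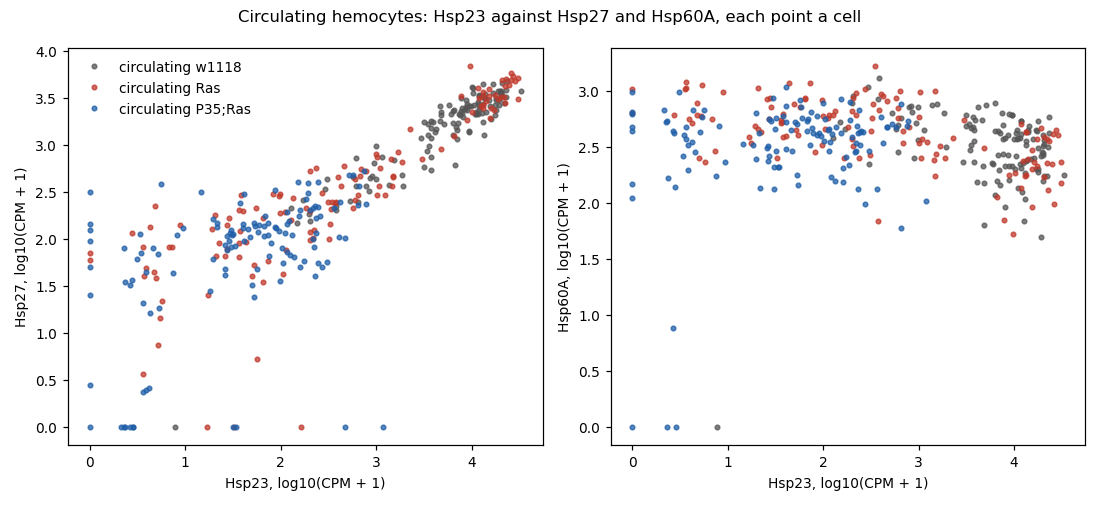
Hsp23 against Hsp27 (left) and Hsp60A (right) in single circulating hemocytes, on axes of log10 of CPM plus 1, coloured by genotype. Hsp27 rises with Hsp23, with a rho of 0.88 in w1118 and 0.90 in Ras cells, while Hsp60A declines, with a rho of -0.40 and -0.56.

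The deposited annotation places circulating cells in clusters that were made in part from such genes, so levels by cluster are given as a description. In cluster 1 the median of Hsp23 was 14453 CPM over 52 w1118 cells and 16588 CPM over 32 RasV12 cells. In cluster 0 it was 339 CPM over 8 w1118 cells, 51.6 CPM over 57 RasV12 cells and 39.5 CPM over 93 p35;RasV12 cells. Cluster 4 lay between, at 1066 CPM over 20 w1118 and 1074 CPM over 16 RasV12 cells. Within cluster 1 the log2 ratio of RasV12 to w1118 was 0.22, and within cluster 0 it was -1.36. No p35;RasV12 cell lay in cluster 1. In cluster 2 the median was 108 CPM over 20 RasV12 and 95.1 CPM over 29 p35;RasV12 cells, and in cluster 3 it was 6674 CPM over 42 w1118 cells. Within cluster 0 the summed level of Hsp23 was 195 CPM in RasV12 and 118 CPM in p35;RasV12, that of Hsp83 1224 and 584 CPM, and that of Hsp68 10.3 and 0.79 CPM. Hsp26 stood at 2.04 and 2.28 CPM there, with medians of 0 in both.

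**Figure D3:**
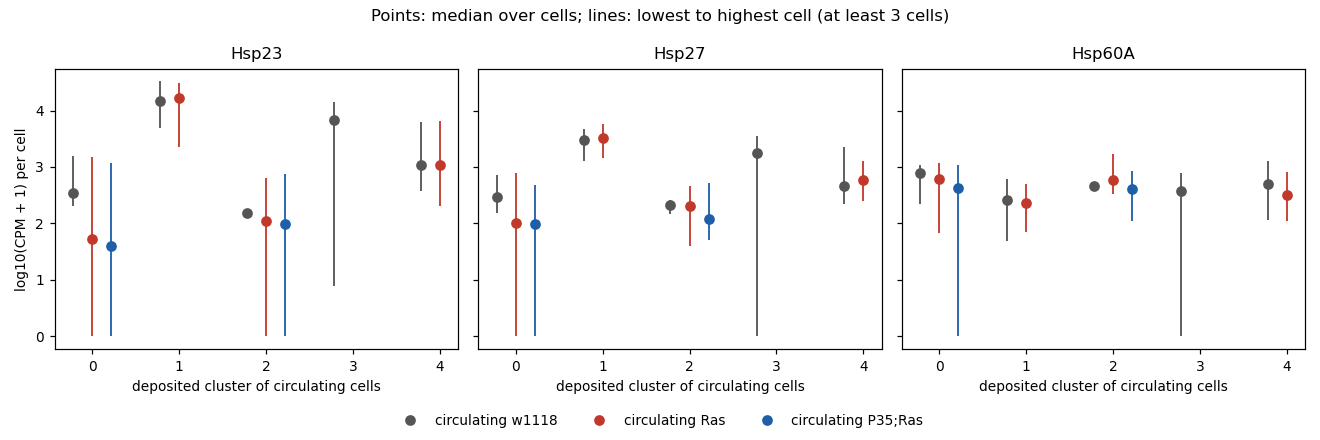
Hsp23, Hsp27 and Hsp60A by deposited cluster and genotype of circulating cells, as log10 of CPM plus 1. Points are medians over cells and lines run from the lowest to the highest cell, for sets of at least 3 cells. The points of w1118 and Ras in cluster 1 lie side by side for Hsp23, at 14453 and 16588 CPM.

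Circulating cells filled 1 plate with w1118 in columns 1 to 8, RasV12 in columns 9 to 16 and p35;RasV12 in columns 17 to 24, so genotype and place on the plate cannot be told apart. Column medians of Hsp23 ran from 3646 to 12399 CPM in w1118, from 31.1 to 1006 CPM in RasV12 and from 26.0 to 184 CPM in p35;RasV12. Every w1118 column was above every column of either tumor genotype. The same held for Hsp27, with 1166 to 2604 CPM against no more than 515 CPM elsewhere. Columns of the 2 tumor genotypes overlapped.

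The _C wells, which belong to the attached set, showed a like order of labels for Hsp23 and Hsp27 among the kept wells. In the 7 kept w1118_C wells Hsp23 was at 2449, 4258.5, 4557, 7140, 13174, 15835 and 20046 CPM. In the 2 kept Ras_C wells it was at 177 and 1643 CPM, and in the 4 p35Ras_C wells at 64.1, 67.2, 73.6 and 142 CPM. All w1118_C wells stood above all kept wells of the other labels. Of the wells left out for over 10% mitochondrial reads, 1 w1118_C well had 3148 CPM and the 3 Ras_C wells had 56.6, 79.0 and 18857 CPM, so that the separation does not hold with them. Hsp27 separated the kept wells too, at 859 to 4697 CPM in w1118_C wells against 17.9 to 510 CPM in the others. With the wells left out this did not hold either, as a Ras_C well had 2904 CPM and a w1118_C well 590 CPM. Medians over kept w1118_C, Ras_C and p35Ras_C wells fell in this order for Hsp26 (301, 16.4 and 1.84 CPM) and Hsc70-3 (2119, 891 and 535 CPM). They did not for Hsp83 (593, 654 and 535 CPM) or Hsp60A (321, 190 and 265 CPM). Nor did they for Hsp67Bc (0.49, 36.1 and 0.55 CPM), Hsp68 (0.73, 5.87 and 0.04 CPM) or DnaJ-1 (2.75, 10.5 and 5.81 CPM).

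Hsc70-3, the Hsp70 protein of the endoplasmic reticulum known in mammals as BiP, was read in every cell and followed the small heat shock protein genes in a narrower range. In circulation it ran from 243 through a median of 3249 to 14606 CPM in w1118 cells. It ran from 59.1 through 1481 to 13135 CPM in RasV12 cells and from 14.7 through 826 to 7448 CPM in p35;RasV12 cells. All 3 ranges overlapped. Log2 ratios of summed CPM to w1118 were -0.59 (-0.60 to -0.58) for RasV12 and -1.84 (-1.86 to -1.83) for p35;RasV12. Across cells its rho with Hsp23 was 0.41, 0.47 and -0.07 in the same order of genotypes.

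Hsp83, the cytosolic Hsp90 that matures kinases and steroid receptors, also stood highest in w1118. It ran from 6.81 through a median of 3297 to 14427 CPM in w1118 cells, from 5.31 through 1386 to 10384 CPM in RasV12 cells and from 0 through 466 to 5243 CPM in p35;RasV12 cells. Summed levels were 4232, 2015 and 682 CPM, a log2 ratio to w1118 of -1.07 (-1.08 to -1.06) for RasV12 and -2.63 (-2.65 to -2.62) for p35;RasV12. Unlike Hsp23, its median in RasV12 lay near the middle of the other medians on the log scale, and its rho with Hsp23 was 0.19, 0.27 and 0.11.

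Hsp68, a heat inducible member of the Hsp70 family, and DnaJ-1, the J protein that helps Hsp70, were both low. Hsp68 had a read in 36.8% of w1118 cells (28.4 to 45.9%), 26.2% of RasV12 cells (18.8 to 34.8%) and 22.6% of p35;RasV12 cells (15.6 to 31.0%), and these intervals overlap. Its summed level was 27.3, 30.4 and 12.1 CPM. In deposited cluster 2 its median was 124 CPM over 20 RasV12 cells and 14.5 CPM over 29 p35;RasV12 cells, while it was 0 in the other sets of at least 3 cells. DnaJ-1 had a read in 51.2% (42.1 to 60.2%), 38.9% (30.3 to 48.0%) and 32.3% (24.1 to 41.2%) of the cells, with a summed level of 33.1, 23.3 and 21.7 CPM. The highest single circulating cells reached 348 CPM for Hsp68 and 396 CPM for DnaJ-1.

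Hsp60A, which folds proteins inside mitochondria, was level between genotypes. Its median was 365 CPM in w1118, 443 CPM in RasV12 and 416 CPM in p35;RasV12 cells, with lowest cells at 0, 51.7 and 0 CPM and highest cells at 1288, 1662 and 1068 CPM. The log2 ratio of summed CPM to w1118 was 0.41 (0.39 to 0.43) in RasV12 and 0.02 in p35;RasV12 cells. The latter turned to -0.19 under TMM factors. Across cells it ran against Hsp23, with a rho of -0.40, -0.56 and 0.04 in the same order.

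**Figure D4:**
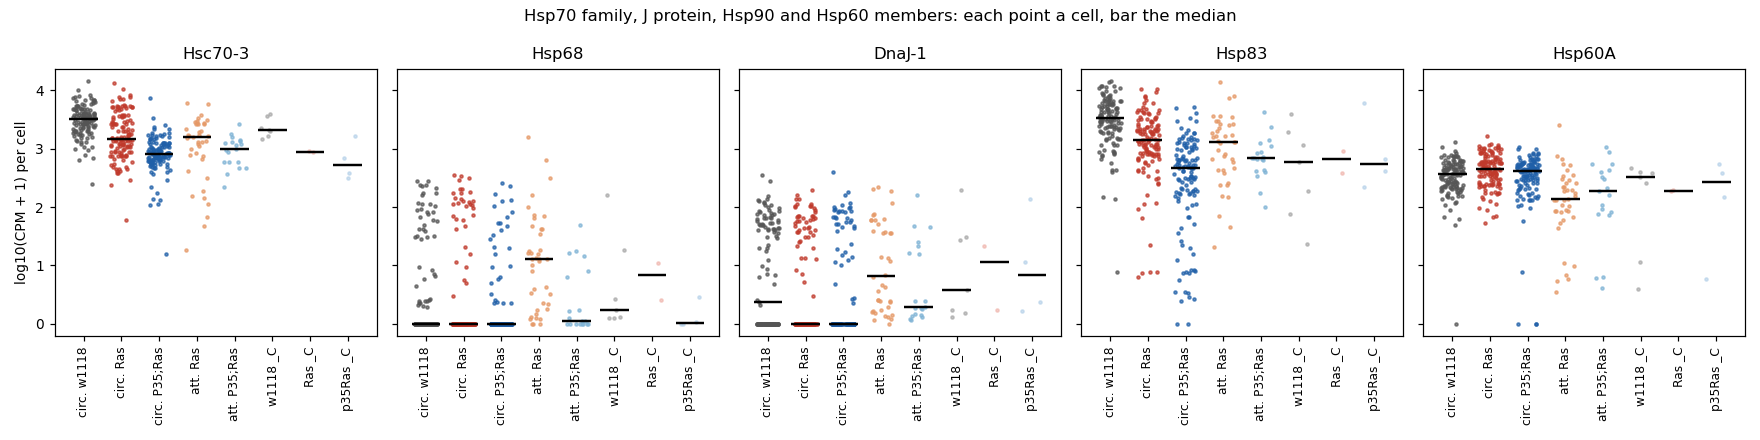
Level of the Hsp70 family, J protein, Hsp90 and Hsp60 members per cell, as log10 of CPM plus 1, by group. Each point is a cell and each bar a median. Hsc70-3 and Hsp83 step down from circulating w1118 to P35;Ras cells (medians of 3249 to 826 CPM and 3297 to 466 CPM), and Hsp60A does not (365 to 416 CPM).

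Counted over the members, 9 passed the filter of a mean of 10 CPM over the 5 groups, Hsp67Bc only through the attached cells. Between circulating RasV12 and w1118 cells 3 of them (Hsp26, Hsp67Bc and Hsp83) were at least 2-fold lower, against 2.54% of 6145 genes, and 0 were at least 2-fold higher, against 8.12%. Between p35;RasV12 and w1118 cells 7 were lower, Hsp67Bc among them, against 5.85% of 6175 genes, and 0 higher, against 13.5%. The calls of Hsp67Bc rest on 43, 11 and 6 reads in w1118, RasV12 and p35;RasV12 cells, so nothing is read from them. Hsp67Bc stays in both counts. The other members lower than in w1118 were Hsp26 and Hsp83 in RasV12, and Hsp23, Hsp26, Hsp27, Hsp68, Hsc70-3 and Hsp83 in p35;RasV12. Between p35;RasV12 and RasV12 cells 6 were lower, against 3.38%, and 0 higher, against 3.97%. The median log2 ratio of the 9 was -0.85, -2.63 and -1.33 in these comparisons, beside 0.10, 0.17 and 0.05 over all genes tested. These medians include Hsp67Bc and were not computed without it. The comparisons share their groups in pairs and are not independent of each other.

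In attached cells most members were lower in p35;RasV12 than in RasV12 glands, with a few cells carrying much of several sums. At least 2-fold lower were 7 of 9, all but Hsc70-3 and Hsp60A, against 26.3% of 6261 genes. At least 2-fold higher were 0, against 15.1%. The median log2 ratio was -1.40, beside -0.24 over all genes. Of the 7, Hsp67Bc passed the filter on low levels mainly through attached RasV12 cells, so nothing is read from its call. It stays in the count and in the median, which was not computed without it. The other members lower were Hsp23, Hsp26, Hsp27, Hsp68, DnaJ-1 and Hsp83. Hsp23 ran from 62.9 through a median of 381 to 27756 CPM in RasV12 and from 40.5 through 733 to 5019 CPM in p35;RasV12 cells. The ranges overlapped, and the direction depends on the measure. The sums gave a log2 ratio of -1.33 (-1.34 to -1.33), and the medians gave 0.95. In RasV12 1 cell held 26.5% of the reads. Hsp27 was lower on both measures, with medians of 211 and 161 CPM and a log2 ratio of sums of -1.40. Hsp26 was too, with medians of 18.4 and 2.19 CPM and a log2 ratio of -2.40. Hsp83 had medians of 1295 and 688 CPM and a log2 ratio of -1.34, and Hsc70-3 medians of 1579 and 999 CPM and a log2 ratio of -0.90. Hsp60A had medians of 134 and 191 CPM and a log2 ratio of 0.48. The crystal cell markers differed between these groups too. Across the 19 attached p35;RasV12 cells their summed level had a rho of -0.61 with Hsp27 and -0.43 with Hsp83. Across attached RasV12 cells these were -0.07 and -0.19. Across the 40 attached RasV12 cells the lamellocyte markers had a rho of 0.60 with Hsp83 and 0.65 with Hsc70-3, but 0.01 with Hsp23 and -0.34 with Hsp27. With Hsp27 it was 0.67 across attached p35;RasV12 cells. Other lists varied with these members too. Across attached RasV12 cells plasmatocyte markers had a rho of 0.47 with Hsp83 and 0.41 with Hsc70-3, but -0.39 with Hsp27. Salivary gland genes had -0.46 and -0.26 with Hsp83 and Hsc70-3, and fat body genes -0.38 and -0.39. Across attached p35;RasV12 cells fat body genes had -0.53 with Hsp27 and -0.31 with Hsp83, and salivary gland genes 0.38 and 0.27. The part of all these lists in the difference was not tested.

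Hsp67Bc ran from 0.33 through a median of 6.74 to 1081 CPM in attached RasV12 cells, with 15 of 40 cells at 50 CPM or more, and from 0 through 1.47 to 250 CPM in attached p35;RasV12 cells, with 3 of 19. With cells thinned to 420000 reads it had a read in 82.1% of the attached RasV12 and 35.3% of the attached p35;RasV12 cells, and in 0.91% of circulating RasV12 and 0.89% of circulating p35;RasV12 cells. The log2 ratio of attached to circulating cells was 9.59 (8.75 to 10.6) in RasV12 and 8.48 (7.36 to 9.93) in p35;RasV12. In the 13 kept _C wells its median was 0.84 CPM and the highest value 71.4 CPM, which 11 of 40 attached RasV12 and 3 of 19 attached p35;RasV12 cells exceeded. Across attached cells its rho with the summed salivary gland genes was 0.32 in RasV12 and 0.67 in p35;RasV12, and with the number of genes read in the cell 0.63 and 0.39. The part of gland RNA in these reads was not tested.

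Hsp68 ran from 0 through a median of 11.8 to 1590 CPM in attached RasV12 cells and from 0 through 0.13 to 48.1 CPM in attached p35;RasV12 cells. In RasV12 1 cell held 47.4% of its reads and 5 cells 93.9%. The summed level was 162 CPM, or 89.5 CPM without the first of these cells, beside 30.4 CPM in circulating RasV12 cells. The log2 ratio to circulating cells was 2.41 (2.35 to 2.48) in RasV12 and -1.41 (-1.54 to -1.28) in p35;RasV12, and with all cells, before any was left out, the latter was 0.30. A cell of 11.5% mitochondrial reads with 271 CPM of Hsp68 entered there. In attached p35;RasV12 cells 1 cell held 50.6% of the reads of Hsp68, and without it the level was 2.36 CPM in place of 4.55 CPM. The same held for Hsp67Bc, at 14.8 in place of 27.7 CPM, and for DnaJ-1, at 7.64 in place of 13.2 CPM. DnaJ-1 had medians of 5.55 and 0.94 CPM in the attached groups, with highest cells of 224 and 157 CPM. Across attached RasV12 cells Hsp68 had a rho of 0.54 with Hsp83, 0.60 with Hsp26 and 0.42 with DnaJ-1.

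Attached and circulating cells differ in location, in isolation by capillary or by sorting, in amplification cycles, sequencer, read length and the counting of mates, and these cannot be told apart. Hsp67Bc passed the filter on low levels only through attached cells, so that it had to be higher there, and nothing is read from its count. Of the other 8 members, 1 (Hsp68) was at least 2-fold higher in attached RasV12 cells, against 10.4% of 6261 genes, and 2 (Hsp27 and Hsp60A) at least 2-fold lower, against 25.2%. In p35;RasV12 2 of the 8 (Hsp23 and Hsp26) were higher, against 12.6%, and 1 (Hsp68) lower, against 39.6%. All genes tested had a median log2 ratio of -0.42 in RasV12 and -0.66 in p35;RasV12. TMM factors shifted every ratio by 0.36 and 0.77. The split, Hsp67Bc included, was then 3 higher and 0 lower in RasV12 and 5 higher and 0 lower in p35;RasV12. The shares of all genes under these factors are not given, so nothing is read from this split. Hsp23 had log2 ratios of -0.59 in RasV12 and 3.40 in p35;RasV12, where its level was 123 CPM in circulating and 1293 CPM in attached cells. At least 2000 CPM of Hsp23 was found in 5 of 19 attached p35;RasV12 cells, against 0 of 124 circulating cells.

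**Figure D5:**
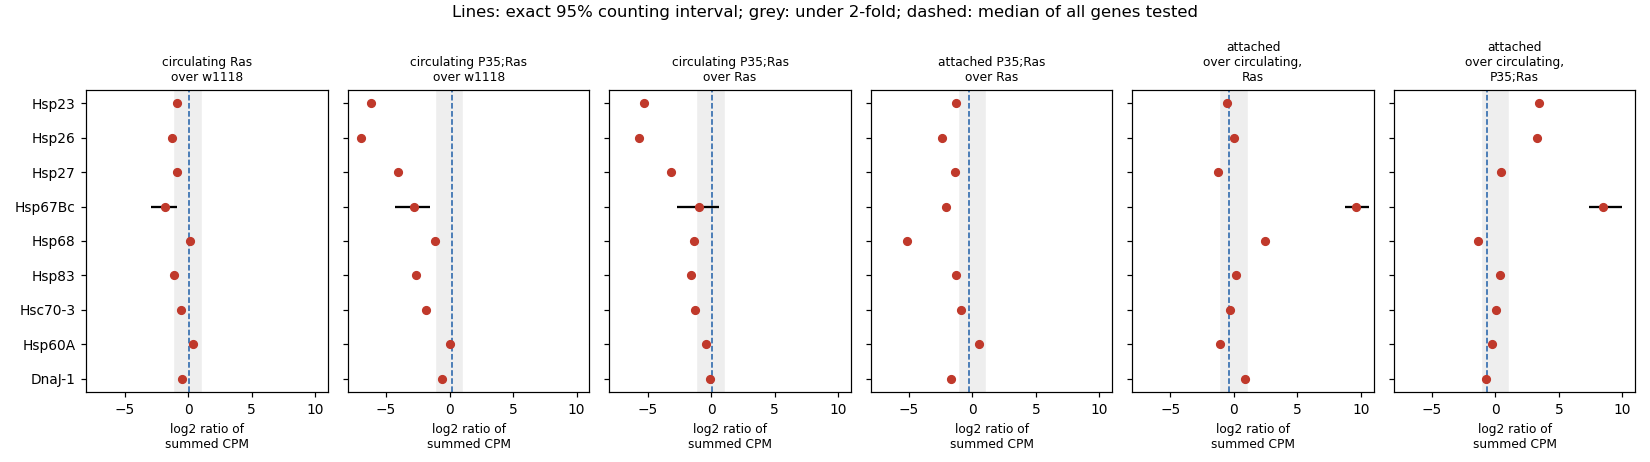
Log2 ratio of summed CPM of 9 members in the 6 comparisons, with exact 95% counting intervals (mostly narrower than the points), the range under 2-fold in grey and the median of all genes tested as a dashed line. Hsp23 and Hsp26 lie at -6.16 and -7.00 in circulating P35;Ras over w1118, and Hsp67Bc at 9.59 and 8.48 in attached over circulating cells.

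By summed level per kilobase of exon not shared with another gene, Hsp23 came first among the 9 members in circulating w1118 (9942 CPM per kb), circulating RasV12 (5531), attached RasV12 (3683) and attached p35;RasV12 cells (1463). By median over cells Hsp23 was not first in RasV12. It had 364 CPM per kb in circulation, below Hsp83 (471) and Hsc70-3 (413), and 431 CPM per kb in attached cells, where Hsc70-3 and Hsp83 both had 440 CPM per kb, and the interquartile ranges of these 3 overlapped in either group. In summed level in circulating p35;RasV12 cells Hsc70-3 (277 CPM per kb), Hsp83 (232) and Hsp60A (164) came before Hsp23 (139). The interquartile ranges of these 4 overlapped there, with Hsp23 from 6.82 to 181 and Hsc70-3 from 174 to 328 CPM per kb. In circulating w1118 cells Hsp83 (1437), Hsp27 (1261) and Hsc70-3 (995 CPM per kb) followed and likewise overlapped.

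Other chaperone genes, from lists chosen by function, were mostly level between the circulating groups. Of 13 genes for folding in the endoplasmic reticulum 0 were 2-fold higher or lower in any of the 3 circulating comparisons, and of 10 tested subunits of the chaperonin CCT and mitochondrial chaperonins also 0. Hsc70-4, the constitutive cytosolic Hsp70, stood at 4477, 4112 and 3871 CPM in the 3 genotypes. Of 17 co-chaperones tested, 1 was higher and 1 lower in each circulating comparison. CG5001, a J protein gene, was past 2-fold in all 6, at 3.38, 13.0 and 0.18 CPM in circulation and 43.0 and 2.85 CPM in the attached groups. It passed the filter on low levels mainly through attached RasV12 cells, so nothing is read from its calls. In attached p35;RasV12 against RasV12 cells, where 26.3% of all genes tested were at least 2-fold lower, 5 of 17 co-chaperones were, which is near that share, and 5 of 10 chaperonin genes, among them CCT1 (log2 ratio -1.44), CCT2 (-2.63) and CCT8 (-1.59). The co-chaperone gene stv, which encodes Starvin and is named here after its values were seen, was at 1.17, 0.15 and 4.15 CPM in circulation, at 52.9 and 6.80 CPM in attached cells and at 0.28 CPM in the _C wells. Like CG5001, stv passed the filter mainly through attached RasV12 cells. CG5001 and stv were the co-chaperones past 2-fold in the circulating comparisons. Both are among the 5 lower in attached p35;RasV12 cells, and nothing is read from these calls. Trap1, the mitochondrial Hsp90, was lower in attached than circulating cells of both genotypes (log2 ratios of -1.36 and -1.03).

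The small heat shock protein gene CG14207 was at 62.4, 68.4 and 65.4 CPM in circulating w1118, RasV12 and p35;RasV12 cells and at 555 and 323 CPM in the attached groups. Its log2 ratios of attached to circulating cells were 3.02 and 2.30, and it stood at 141 CPM in the _C wells. Hsp110, a nucleotide exchange factor of Hsp70, was lower in attached cells, with log2 ratios of -1.21 and -2.45. Sil1, an exchange factor of BiP, was at 14.9 CPM in attached RasV12 and 79.3 CPM in attached p35;RasV12 cells. Among regulators, Hsf itself was at 54.0 to 67.0 CPM in circulating cells and at 63.2 and 10.7 CPM in the attached groups, and the heat induced lncRNA:Hsromega at 863 to 1167 CPM and at 944 and 2102 CPM. MtnA, a metallothionein and the stress response gene most often past 2-fold, was at 59.3, 17.5 and 52.7 CPM in circulation and at 1123 and 620 CPM in the attached groups. The heat inducible Hsp70 genes are near-identical copies whose shared reads are not counted under these settings. Their counts, of 0 to 0.18 CPM in circulating and up to 10.9 CPM in attached cells, are uncertain.

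The genes most like a sum of 7 members were found by Spearman's rho across the cells of each circulating group. The sum was the CPM of Hsp22, Hsp23, Hsp26, Hsp27, Hsp67Bc, Hsp68 and DnaJ-1. Hsp23 makes up 78.4% of its reads in w1118, 79.4% in RasV12 and 43.6% in p35;RasV12, so the rho mostly follows Hsp23 in w1118 and RasV12. Of 6234 genes the 5 with the largest median rho over the 3 groups were fax (0.78), sn (0.77), cib (0.75), Act5C (0.75) and Ama (0.75). The gene sn encodes the actin-bundling protein fascin, cib an actin-binding protein, Act5C a cytoplasmic actin and Ama a secreted immunoglobulin-domain protein. For fax the rho was 0.78, 0.78 and 0.04 in w1118, RasV12 and p35;RasV12 cells, and the other 4 were also under 0.15 there. All 5 were lower in circulating p35;RasV12 than w1118 cells, as in sn with 1403, 779 and 119 CPM and in Ama with 3859, 2023 and 339 CPM in that order of genotypes. Of all genes tested, 5.85% were at least 2-fold lower there. The 5 were picked for rising with a sum that is mostly Hsp23 in w1118 and RasV12 cells, so nothing is read from their direction.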

How the data were processed

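Single hemocytes were sequenced with Smart-seq2, a full-length cDNA method without molecular identifiers. The authors aligned the reads to Dm6 (r6.37) with STAR 2.7.2 and deposited raw counts of reads per gene and cell made by featureCounts 2.0.0 at default settings, so that reads on 2 genes or with several alignments were left out, strand was not used, and each mate of the attached set was a count. Genotypes and clusters came from the deposited annotation of the cells, since the labels name 1 genotype for each table. A cell was kept if no more than 10% of its reads were mitochondrial and 200 or more genes were read. No doublet caller was run, as cells were sorted or hand-picked singly into wells. The _C wells formed no group of a comparison and entered as values set beside the groups and in 1 alternative, in which their median was subtracted. Wells without a genotype (4 circulating, 1 attached) were not compared.

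Each group's reads were pooled per gene and scaled to CPM. A gene was tested if its mean CPM over the 5 groups was at least 10, and called if past 2-fold. The floor for a gene with no read in a group was 3 counts. Shares have exact Clopper-Pearson intervals at 95%. All intervals cover counting or the sampling of cells only, not variation between larvae. Of 17612 identifiers, 17549 had a symbol. The members and gene lists were chosen with earlier results of these data known. The text names all members and the listed genes past 2-fold in most comparisons (at most 4 per list). It also names any gene overlapping a member and the 5 genes most like the sum of 7 members. That sum is mostly Hsp23 in w1118 and RasV12 cells. Hsc70-4, stv and the Hsp70 copies were named after their values were seen. The ratios were tested on simulated data. TMM factors came from edgeR 4.0.16 (R 4.3.3), and all else from scipy 1.17.1, pandas 2.3.3 and numpy 2.4.6 under Python 3.11.15, with plots by matplotlib 3.10.9.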

Additional observations from a re-analysis of the deposited data

Results flagged for a closer look

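For 6 members the log2 ratio of attached to circulating cells had opposite signs in RasV12 and p35;RasV12. With 1 pool per group this difference between genotypes was not tested. The values in RasV12 and p35;RasV12 were -0.59 and 3.40 for Hsp23, -0.03 and 3.28 for Hsp26, -1.30 and 0.43 for Hsp27, 2.41 and -1.41 for Hsp68, -0.35 and 0.01 for Hsc70-3, and 0.86 and -0.72 for DnaJ-1. Under TMM factors Hsp23 (-0.23 and 4.17), Hsp68 (2.78 and -0.64) and Hsp27 still had opposite signs, whereas Hsp26 (0.33 and 4.05), Hsc70-3 (0.01 and 0.78) and DnaJ-1 (1.22 and 0.05) were above 0 in both. With medians over cells, Hsp23 (0.24 and 3.85) and Hsc70-3 (0.09 and 0.28) were above 0 in both, Hsp27 (-0.40 and 0.64) kept opposite signs, and the other 3 had no ratio.

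Wells without a genotype, which no comparison used, also held reads of the members, more than the 3 that a count of 0 allows. The 4 such circulating wells held 15, 6, 9 and 7 reads of the members among 866, 2339, 1959 and 2500 reads in all. The paper names negative controls on each plate of circulating cells, and whether any of these wells is such a control is not given. The attached well without a genotype held 51910 reads of the members among 19483638, with Hsp23 at 981 CPM, Hsp27 at 321 CPM and Hsp67Bc at 58.5 CPM.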

How the results depend on the processing

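No paired analysis was possible because each group is 1 pool and the groups share no replicate numbers. The counts of members past 2-fold kept to within 1.5 times of those reported, except as follows. With medians over cells, which give no ratio for a member with a median of 0, the counts were 4 in circulating p35;RasV12 over w1118, 3 in circulating p35;RasV12 over RasV12, 4 in attached p35;RasV12 over RasV12, 1 in attached over circulating RasV12 and 2 in attached over circulating p35;RasV12. With the stricter filter on cells (at most 5% mitochondrial reads and at most 4000 genes), which kept 6 w1118, 12 RasV12 and 17 p35;RasV12 circulating cells and no attached cell, 7 members were past 2-fold in circulating RasV12 over w1118. Attached comparisons have no value there. Subtracting the median of the _C wells left 4 members with a value, all past 2-fold, in attached p35;RasV12 over RasV12. Within clusters, a choice made after seeing the data, 1 member was past 2-fold in circulating RasV12 over w1118 in cluster 1, and 2 in circulating p35;RasV12 over RasV12 in cluster 0. Attached cells of at least 1000000 reads, also chosen after seeing the data, kept the counts within that range.

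Over all alternatives, 241 single log2 ratios stayed within the counting interval of the reported ratio and 270 left it. Of the single log2 ratios past 2-fold, 4 changed sign. Hsp67Bc in circulating p35;RasV12 over w1118 became 3.31 with the mean over cells, through 5 reads in a cell of 6981 reads. Hsp26 in circulating p35;RasV12 over RasV12 became 0.15 within cluster 0, and Hsp23 in attached p35;RasV12 over RasV12 became 0.95 with medians. Hsp68 in attached over circulating p35;RasV12 became 0.30 with no filter on cells. The 35 of 50 pairs of member and group with a read in over 50% of the cells were 32 in thinned cells and 33 with at least 5 reads. The median rho of Hsp23 and Hsp27 over the circulating groups, 0.88, was 0.82 under the stricter filter.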
